A study of Mus musculus with 16 samples.

Results

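The receptors for noradrenaline and adrenaline were followed in the dorsal root ganglia (DRGs) of mice given the noradrenaline reuptake inhibitor desipramine (DMI). The 8 adrenergic receptor genes analyzed here were Adra1a, Adra1b, Adra1d, Adra2a, Adra2b, Adra2c, Adrb1 and Adrb3. They were taken by their symbols in the mouse annotation out of 52636 genes listed, with earlier results of these data known. All 8 passed the filter on low counts, as did 21371 genes in all. Bulk RNA from L3 to L6 DRGs was sequenced from 16 male C57Bl6/J mice 3 to 4 months of age, with 1 mouse per library and 4 mice in each group. The 4 groups, named Sham-Saline, Sham-DMI, SNI-Saline and SNI-DMI, cross surgery with treatment, where SNI is the tibial variant of spared nerve injury, in which the common peroneal and sural nerves of the left hindleg are ligated and cut and the tibial nerve is left intact. DMI was injected i.p. at 15 mg/kg 2 times a day for 3 weeks, and saline mice had the vehicle. Surgery preceded treatment by 4 weeks according to the labels and the study's results text, although its methods section gives 4 months.

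Noradrenaline acts through 3 receptor families that differ in their G protein. The α1 receptors couple to Gq and activate phospholipase C and protein kinase C, the α2 receptors couple to Gi and lower cyclic AMP, close N-type calcium channels and open GIRK potassium channels, and the β receptors couple to Gs and raise cyclic AMP and protein kinase A activity. Desipramine slows the removal of noradrenaline from the extracellular space, and α2 receptors are known as sites at which noradrenaline reduces pain transmission, on primary afferents and in the spinal cord.

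Reads assigned to genes ran from 41194238 in Sham-DMI replicate 3 to 73920332 in Sham-DMI replicate 2. The labels name spinal cord as the tissue and DRG as the cell type, so markers of both were examined. Prph, Scn10a and Avil, which mark sensory neurons, averaged 1680, 1158 and 927 CPM over the 16 libraries. CPM are counts scaled to each library's total after the TMM adjustment of edgeR, rather than to its unadjusted reads on genes. The 12 sensory neuron markers summed to 9908 to 12230 CPM per library. The 6 markers of spinal motor and dorsal horn neurons summed to 3.6 to 7.40 CPM, with Chat and Mnx1 at means of 0.031 and 0.015. The 4 astrocyte markers, genes that satellite glia also express, summed to 36.5 to 60.4 CPM. The 5 oligodendrocyte markers summed to 207 to 302 CPM, of which Cnp, also a Schwann cell gene, averaged 251 CPM and the oligodendrocyte genes Mog and Opalin 0.195 and 0.039 CPM. All 8 DMI libraries carry label numbers from 17 to 24 and all 8 saline libraries from 33 to 40, so anything that went with that numbering cannot be told apart from DMI. The same holds for injury within each treatment, since the sham and SNI libraries are numbered 17 to 20 and 21 to 24 under DMI, and 37 to 40 and 33 to 36 under saline. Sham-Saline also stood apart in the reads that could belong to more than 1 gene, at 3.05% to 3.18% per library against 3.21% to 3.41% in the other 12 libraries, and its reads outside genes, at 8.67% to 9.44%, were above those of 10 of the other 12. The part of this in the comparisons with Sham-Saline was not tested. In bulk ganglia, fewer cells of a type and less RNA per cell cannot be told apart.

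Levels of different genes were compared in TPM, a scale on which the counts are first divided by the exon length of the gene. Adra2c was the most abundant receptor transcript at 29.7 ± 2.91 TPM (SD, n = 16), followed by Adra2a at 9.40 ± 2.13 TPM. Next came Adra1d at 7.18 ± 1.13 TPM, ahead of Adra1b at 2.74 ± 0.60 and Adrb1 at 1.54 ± 0.311 TPM. The 3 scarcest were Adra1a at 0.584 ± 0.248, Adra2b at 0.397 ± 0.196 and Adrb3 at 0.236 ± 0.204 TPM. Each of Adra2c, Adra1d, Adra1b and Adrb1 exceeded the next gene in the order in 16 of 16 libraries, Adra2a exceeded Adra1d in 14, Adra1a exceeded Adra2b in 11, and Adra2b exceeded Adrb3 in 12. The order was therefore not resolved in every mouse for Adra2a against Adra1d or among the last 3 genes.

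α2 transcripts made up 76.2% ± 3.27 (SD, n = 16) of the summed TPM of the 8 genes, α1 transcripts 20.4% ± 2.79 and β transcripts 3.45% ± 0.859. Adra2c alone accounted for 57.4% ± 4.0. Among all genes tested, Adra2c stood at percentile 69.8 by mean TPM, Adra2a at 48.1 and Adra1d at 43.9, whereas Adra1a stood at 9.94, Adra2b at 6.53 and Adrb3 at 3.05. The α2 share was 77.8% ± 1.20 (SD, n = 4) in SNI-DMI and 77.5% ± 2.98 in Sham-DMI, against 76.4% ± 3.45 in SNI-Saline and 73.0% ± 3.50 in Sham-Saline, and the ranges of the 4 groups overlapped. Division by the mean length of a gene's annotated transcripts instead of its exon length, chosen after the data had been seen, kept the first 5 genes in this order but placed Adrb3 above Adra2b, at 0.241 and 0.173 TPM. On that scale Adra1b exceeded Adrb1 in only 11 of 16 libraries, so this step depended on the length used.

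**Figure D1:**
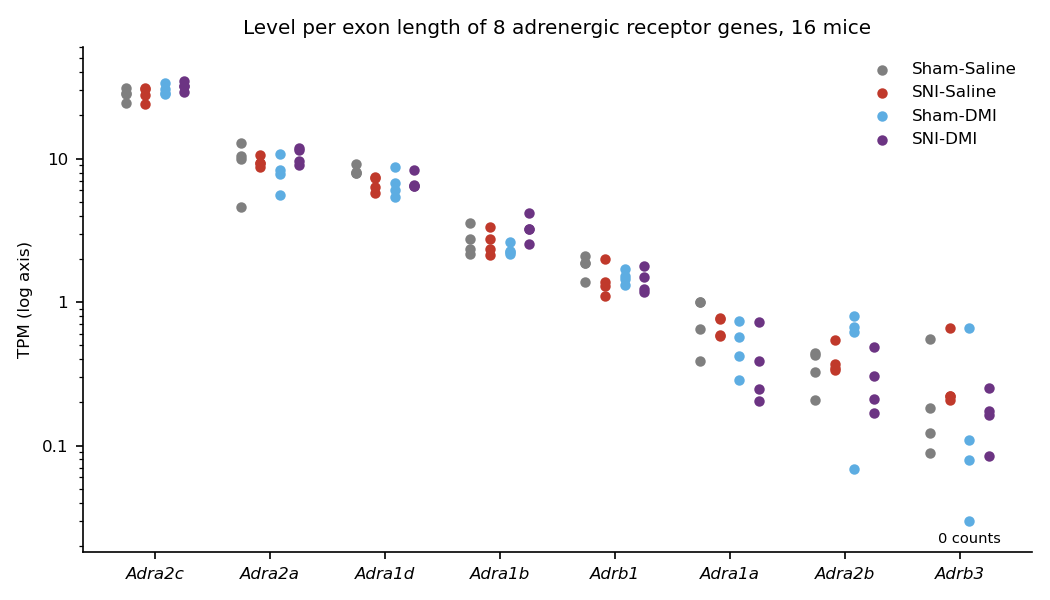
TPM on a log axis for each receptor gene, 1 point per mouse, colored by group. Adra2c lies above every other receptor in all 16 mice, and Adrb3 had 0 counts in 1 Sham-DMI library, drawn at the foot of the plot.

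Across the 4 comparisons between single groups, none of the 8 genes passed an adjusted p of 0.1 in edgeR's quasi-likelihood test. The share of all tested genes that passed was 12.0% in SNI-Saline versus Sham-Saline, 0.402% in SNI-DMI versus Sham-DMI, 2.93% in SNI-DMI versus SNI-Saline and 23.4% in Sham-DMI versus Sham-Saline. When DMI was averaged over both surgeries, 2 of 8 passed, Adra2c upward and Adra1a downward, beside 30.6% of all genes tested, 14.8% upward and 15.8% downward. The number of all genes that passed moved with single libraries. With 1 left out, it ran from 682 (without Sham-Saline replicate 3) to 3286 (without Sham-DMI replicate 1) against 2571 in SNI-Saline versus Sham-Saline, from 17 (without SNI-DMI replicate 4) to 850 (without Sham-DMI replicate 1) against 86 in SNI-DMI versus Sham-DMI, and from 0 (leaving out any of SNI-DMI replicates 1, 2 and 3, or replicate 1 or 3 of SNI-Saline) to 1842 (without Sham-DMI replicate 1) against 626 in SNI-DMI versus SNI-Saline. In Sham-DMI versus Sham-Saline it ran from 3286 (without Sham-Saline replicate 3) to 6094 against 5010, and for DMI averaged from 5207 to 7241 against 6542. The shares given beside the receptors are thus those of the fit to all 16 libraries. None passed for injury averaged over both treatments, beside 16.1% of all genes, and none for the difference between the injury effects with DMI and with saline, where 0 genes of 21371 passed in edgeR, 1692 (7.92%) had an unadjusted p under 0.05 and 16 passed in DESeq2. The comparisons share groups, since Sham-Saline is the control of both the injury and the DMI comparison, so their values are not independent of each other.

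**Figure D2:**
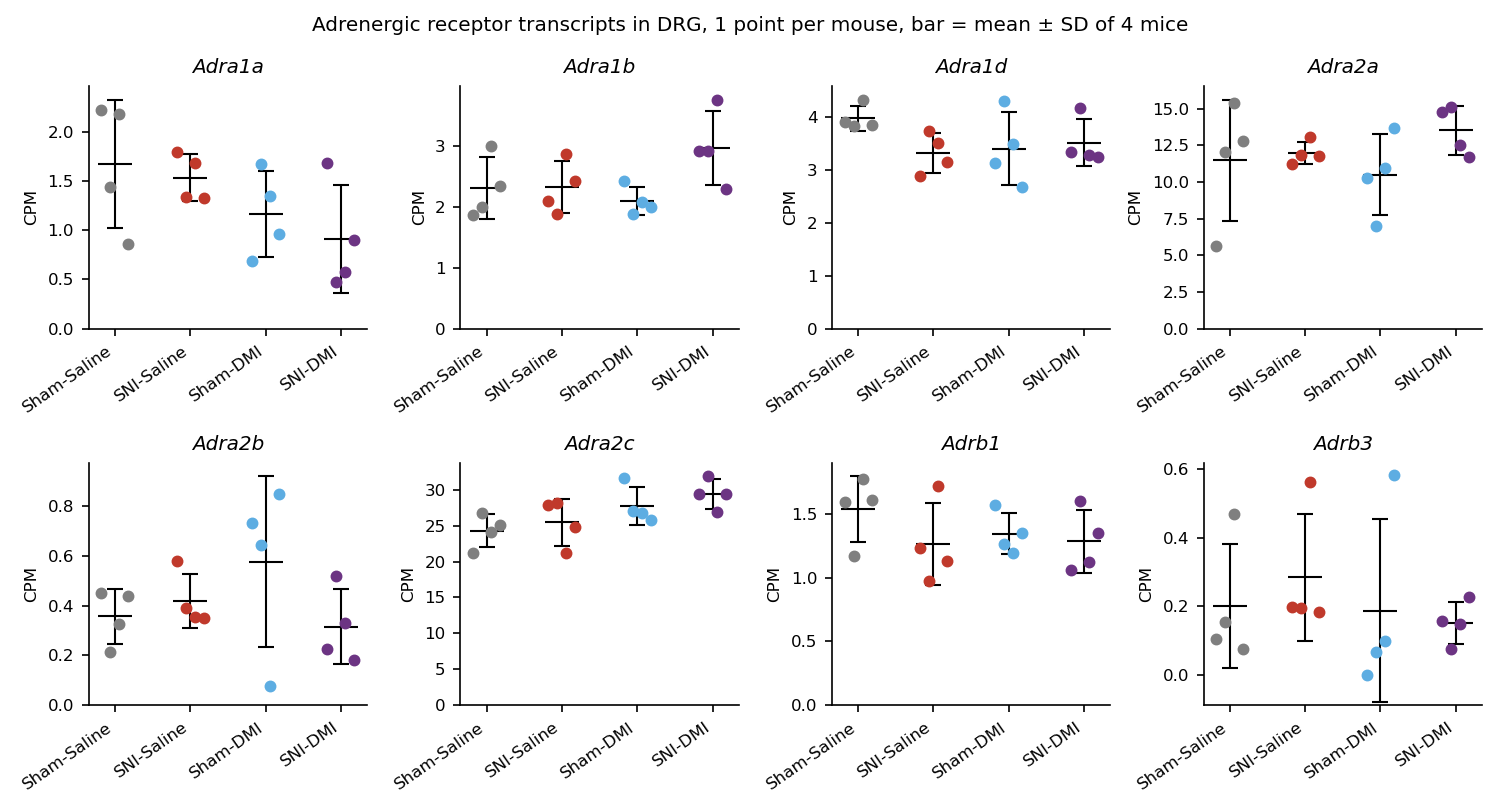
CPM of the 8 receptor genes in each mouse by group, with the mean and SD of 4 mice drawn as bars. The groups overlap in nearly every panel, with Adra1d in SNI-Saline lying wholly below Sham-Saline. The lowest mouse is from Sham-Saline for Adra2a and from Sham-DMI for Adra2b. By the Dixon rule given below, a mouse stands apart only for Adra1d in SNI-DMI and Adrb3 in SNI-Saline.

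Among the α1 receptors, Adra1a encodes the α1A subtype, known from smooth muscle, heart and brain. The gene lies at chr14:66635251-66771168 on the plus strand (GRCm38), with 5 separate exon blocks over 136 kb. The 4 Sham-Saline mice had 2.23, 1.44, 2.18 and 0.860 CPM and the 4 SNI-Saline mice 1.79, 1.34, 1.69 and 1.33 CPM. In Sham-DMI the values were 0.683, 1.67, 1.35 and 0.962 CPM, and in SNI-DMI 1.69, 0.475, 0.577 and 0.904 CPM. The 8 DMI mice lay at 0.475 to 1.69 CPM with a median of 0.933, and the 8 saline mice at 0.860 to 2.23 with a median of 1.56. The 3 lowest of all 16 mice were DMI mice and the 3 highest were saline mice, with wide overlap between.

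Adra1a fell with DMI averaged over both surgeries, where the log2 difference was -0.64 (SE 0.25, adjusted p = 0.079), which is a fold of 0.643 with a 95% interval on the log2 scale from -1.17 to -0.10. The log2 difference was -0.76 (SE 0.36, adjusted p = 0.272) under SNI and -0.52 (SE 0.36, adjusted p = 0.350) under sham. It was the only receptor past the cut-offs that the study used for differential expression, an unadjusted p under 0.05 and a log2 fold change of at least 0.32 in size, in the averaged comparison, where 8.74% of all genes passed them. The call rested on few reads, 31 to 140 per library, and it was lost in 9 of 16 fits that each left out 1 library. Its adjusted p was then 0.162 and 0.170 without Sham-Saline replicates 1 and 3, 0.139 and 0.129 without SNI-Saline replicates 1 and 3, 0.154 and 0.129 without Sham-DMI replicates 1 and 4, and 0.148, 0.156 and 0.113 without SNI-DMI replicates 2, 3 and 4. With trends over GC content and length removed, the value was -0.62 and the adjusted p 0.112.

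Adra1b encodes the α1B subtype and lies at chr11:43774606-43901210 on the minus strand. The Sham-DMI mice had 2.43, 1.88, 2.07 and 2.0 CPM and the SNI-DMI mice 2.91, 2.91, 3.76 and 2.29 CPM. In Sham-Saline the levels were 1.86, 2.0, 3.01 and 2.34 CPM, and in SNI-Saline 2.10, 1.89, 2.88 and 2.43 CPM. Under DMI, 3 of 4 SNI mice were above every sham mouse, while under saline the ranges nearly coincided. In edgeR, the log2 difference between SNI-DMI and Sham-DMI was 0.50 (SE 0.18, adjusted p = 0.284), past the cut-offs of the study, as were 5.41% of all genes, but short of the adjusted threshold. Between SNI-Saline and Sham-Saline the difference was 0.01 (SE 0.18). The test of the difference between these 2 injury effects gave 0.49 (SE 0.25, adjusted p = 0.638), so they were not shown to differ. Averaged over treatments, the injury value of 0.26 (adjusted p = 0.209) passed the threshold only in the fit without Sham-Saline replicate 3, where it was 0.34 and the adjusted p lay just under 0.1.

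Adra1d, the gene of the α1D subtype, was the most abundant α1 transcript and lies at chr2:131545850-131562283 on the minus strand. The Sham-Saline mice had 3.91, 3.82, 4.33 and 3.85 CPM and the SNI-Saline mice 2.88, 3.75, 3.52 and 3.15 CPM. In Sham-DMI the values were 3.13, 4.31, 3.50 and 2.68 CPM, and in SNI-DMI 3.35, 4.18, 3.28 and 3.26 CPM. All 4 SNI-Saline mice lay below all 4 Sham-Saline mice, and this was the only receptor of 8, in any comparison between single groups, whose groups did not overlap. Of all genes tested, 15.4% did not overlap in that comparison and 7.70% lay lower. In the other comparisons, where 0 of 8 receptors were without overlap, 5.03% of all genes were in SNI-DMI versus Sham-DMI, 13.3% in SNI-DMI versus SNI-Saline and 17.1% in Sham-DMI versus Sham-Saline. The difference of -0.26 (SE 0.14, adjusted p = 0.279 in edgeR) did not pass. An exact permutation test of the log2 CPM gave p = 0.0286, the smallest value that 4 against 4 mice allow. Groups without overlap always give that value, so it restates the lack of overlap and adds nothing to it. It was not adjusted for the 8 genes or the 4 comparisons. Adra1d in Sham-DMI versus Sham-Saline was at -0.22 (adjusted p = 0.296) with all libraries and at -0.34 (adjusted p = 0.083) without Sham-DMI replicate 2.

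The 9 markers of smooth muscle and pericytes, cells known to express α1 receptors in vessel walls, were all detected, and their summed level was 171 to 233 CPM in SNI-Saline against 223 to 261 CPM in Sham-Saline. With DMI it was 168 to 222 CPM after SNI and 186 to 214 CPM after sham surgery. None of the 9 passed the adjusted threshold in SNI-Saline versus Sham-Saline, beside 12% of all genes. Their median log2 difference was -0.11, against 0.00 over all genes. In Sham-DMI versus Sham-Saline 3 of the 9 fell, with a median of -0.33, and with DMI averaged over both surgeries 2 fell, with a median of -0.23, against medians of -0.021 and -0.013 over all genes, of which 11.9% and 15.8% were lower. Their part in the levels of Adra1d and Adra1a was not tested. An antisense gene, Gm14285, shares 147 exonic bases with Adra1d and had 1 to 14 counts of its own per library, against 140 to 314 for Adra1d. Whether the counting used strand is not stated, so reads over the shared bases cannot be assigned with certainty.

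The α2 receptors held the largest share. Adra2c, which encodes the α2C subtype, lies within 3.44 kb at chr5:35278319-35281763 on the plus strand and has 1 exon. The Sham-Saline mice had 21.3, 26.8, 24.1 and 25.1 CPM and the SNI-Saline mice 27.9, 28.2, 21.1 and 24.8 CPM. In Sham-DMI the levels were 31.7, 27.0, 26.8 and 25.8 CPM, and in SNI-DMI 29.5, 31.9, 26.9 and 29.4 CPM. All 8 DMI mice were above the median of the 8 saline mice, 4 of the DMI mice were above every saline mouse, and 5 of the saline mice were below every DMI mouse.

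Adra2c rose with DMI averaged over both surgeries, where the log2 difference was 0.20 (SE 0.07, adjusted p = 0.035), a fold of 1.15 with a 95% interval on the log2 scale from 0.06 to 0.34. The mean was 28.6 ± 2.36 CPM (SD, n = 8) with DMI and 24.9 ± 2.71 CPM (SD, n = 8) with saline. The values were 0.21 (SE 0.09, adjusted p = 0.244) under SNI and 0.19 (SE 0.09, adjusted p = 0.169) under sham, neither of which passed alone. The difference between them was 0.01 (SE 0.13, adjusted p = 0.986), with a 95% interval from -0.26 to 0.29. Injury moved Adra2c by 0.07 (SE 0.09) with saline and 0.08 (SE 0.09) with DMI, without passing the test. The rise passed in all 16 fits that each left out 1 library, at 0.16 to 0.24.

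The size of the Adra2c change was below the fold cut-off of the study, an absolute log2 value of 0.32. Of 12 sensory neuron markers, all detected in every library, 4 rose with DMI averaged over both surgeries, beside 14.8% of all genes, and 2 fell, beside 15.8%. The risers were Tubb3 (0.16), Prph (0.19), Tac1 (0.21) and Calca (0.12), which encode a neuronal tubulin, the intermediate filament peripherin, and the precursors of substance P and CGRP. Scn9a, a sodium channel, and P2rx3, an ATP receptor, fell by 0.32 and 0.16 on the log2 scale. The summed level of the 12 with DMI was 10269 to 12230 CPM after sham surgery and 10468 to 11334 CPM after SNI, and with saline 9908 to 10497 and 10100 to 10980 CPM. Their part in the rise of Adra2c was not tested.

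Adra2a encodes the α2A subtype and lies at chr19:54044151-54048982 on the plus strand, again in 1 exon block. The Sham-Saline mice had 5.63, 12.1, 15.4 and 12.8 CPM and the SNI-Saline mice 11.3, 11.9, 13.1 and 11.8 CPM. Sham-DMI mice had 10.3, 7.0, 11 and 13.7 CPM and SNI-DMI mice 14.8, 15.1, 12.5 and 11.7 CPM. The spread between mice was wide in the sham groups, with a coefficient of variation of 36.1% in Sham-Saline and 26.3% in Sham-DMI, and narrower in the injured groups, at 6.38% and 12.5%. A single mouse carried much of the spread in each sham group, since without its lowest mouse the coefficient was 12.9% in Sham-Saline and 15.6% in Sham-DMI. The lowest mouse of the study, Sham-Saline replicate 1, was below every other mouse, with 324 counts. No comparison passed, and the largest difference was 0.37 between SNI-DMI and Sham-DMI (SE 0.22, adjusted p = 0.524). DMI averaged over both surgeries gave 0.02 (SE 0.16), with a 95% interval from -0.31 to 0.35.

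Adra2b encodes the α2B subtype, known from vascular smooth muscle, and lies at chr2:127363208-127367221 on the plus strand. It had 3 to 54 counts per library. The Sham-DMI mice had 0.734, 0.645, 0.0749 and 0.851 CPM, against 0.227, 0.521, 0.330 and 0.181 CPM in SNI-DMI. In Sham-Saline the levels were 0.452, 0.212, 0.327 and 0.438 CPM, and in SNI-Saline 0.580, 0.391, 0.353 and 0.351 CPM. Sham-DMI thus held the 3 highest mice and also the lowest one, replicate 3, which is the library with the fewest reads. The difference between Sham-DMI and Sham-Saline was 0.73 (SE 0.45, adjusted p = 0.293) with all libraries and 1.07 (adjusted p = 0.043) without that library. Between SNI-DMI and Sham-DMI it was -0.90 (SE 0.46, adjusted p = 0.447).

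**Figure D3:**
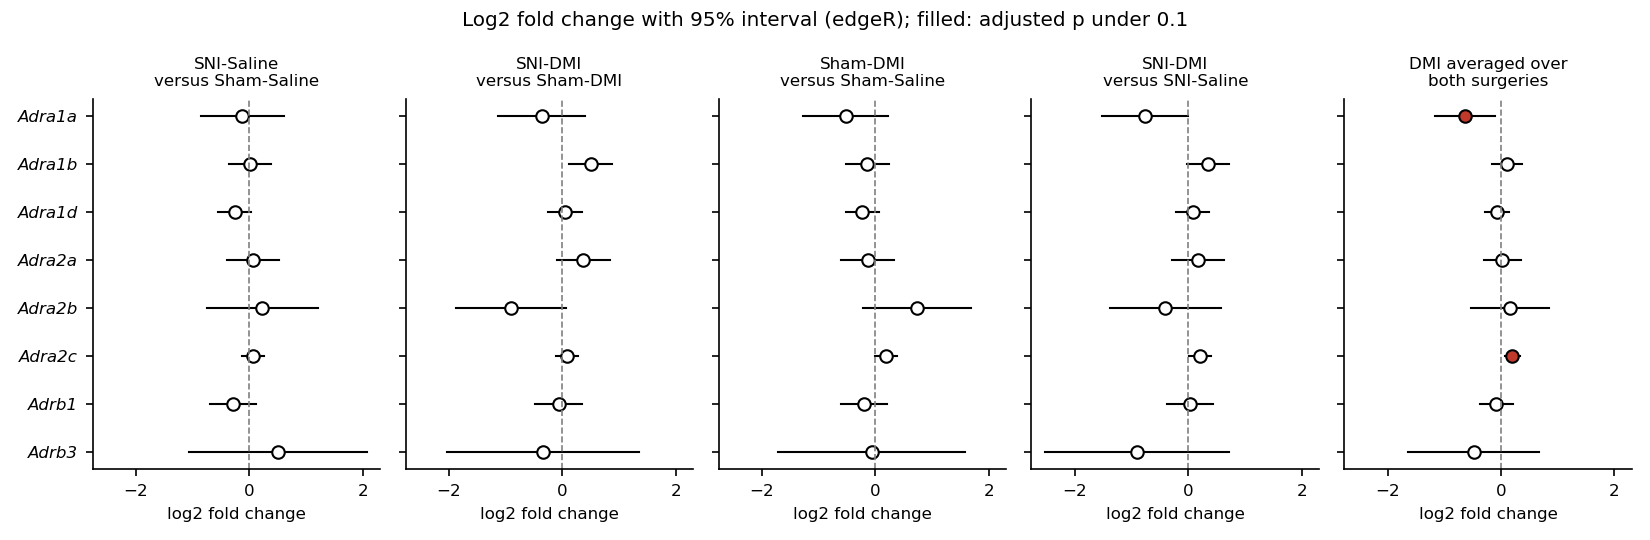
Log2 fold change of each receptor gene with its 95% interval from edgeR in the 4 comparisons between single groups and for DMI averaged over both surgeries, with filled points where the adjusted p was under 0.1. The 2 filled points are Adra2c at 0.20 and Adra1a at -0.64, and the intervals of Adra2b and Adrb3 are the widest.

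Of the β receptors, Adrb1, the gene of the β1 subtype known from the heart, lies at chr19:56722199-56733113 on the plus strand. It was detected in every mouse at 0.977 to 1.78 CPM. With saline the mean was 1.54 ± 0.259 CPM (SD, n = 4) after sham surgery and 1.26 ± 0.32 CPM after SNI, and with DMI 1.35 ± 0.163 and 1.29 ± 0.249 CPM. The groups overlapped in each comparison. Injury with saline gave the largest difference, -0.28 (SE 0.19, adjusted p = 0.409), and DMI averaged over both surgeries gave -0.08 (SE 0.14), with a 95% interval from -0.37 to 0.21.

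Adrb3, whose product is the β3 receptor of fat cells, lies at chr8:27225776-27250616 on the minus strand and had 0 to 37 counts per library. The Sham-Saline mice had 0.104, 0.155, 0.467 and 0.0755 CPM and the SNI-Saline mice 0.199, 0.195, 0.562 and 0.183 CPM. In Sham-DMI the levels were 0, 0.0686, 0.0999 and 0.583 CPM, and in SNI-DMI 0.157, 0.0766, 0.148 and 0.226 CPM. A single mouse stood well above the other 3 in each group except SNI-DMI. The library at 0 counts allows a level of up to 0.0512 CPM (3 counts), and this covers counting error only. No comparison passed, and the intervals were wide, from -1.64 to 0.68 for DMI averaged over both surgeries, where the value was -0.48 (adjusted p = 0.575). Without Sham-DMI replicate 4 that value was -1.38 (adjusted p = 0.062).

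The 3 libraries highest in Adrb3 were also the 3 highest in fat cell markers. The summed level of 9 adipocyte markers was 27.0 CPM in Sham-DMI replicate 4, 16.6 in SNI-Saline replicate 3 and 12.2 in Sham-Saline replicate 3, and these were also the 3 highest libraries for Adrb3, in the same order. The other 13 libraries had marker sums of 2.41 to 8.68 CPM and Adrb3 at 0 to 0.226 CPM. With saline the sums ran from 3.40 to 12.2 CPM after sham surgery and from 2.72 to 16.6 CPM after SNI, and with DMI from 2.41 to 27.0 and from 2.80 to 6.42 CPM. Adipoq, Plin1, Cfd, Cidec, Retn, Plin4 and Fabp4 were detected in every library, whereas Lep was at 0 in 12 libraries and Ucp1 in 2. None of the 7 markers that were tested passed in any comparison between single groups, where 0.402% to 23.4% of all genes passed. The part of fat cells in the level of Adrb3 was not tested. The antisense gene Gm45470 shares 839 exonic bases with Adrb3 and had 0 to 5 counts per library.

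**Figure D4:**
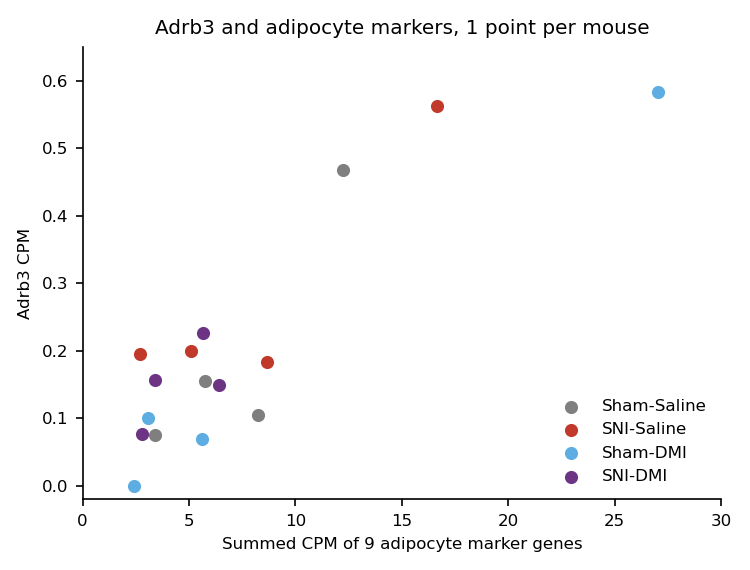
CPM of Adrb3 against the summed CPM of 9 adipocyte markers, 1 point per mouse, colored by group. The 3 mice with the highest marker sums, 12.2 to 27.0 CPM, are the 3 with the highest Adrb3, 0.467 to 0.583 CPM, and they belong to 3 different groups.

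The 8 genes did not vary as a unit over the 16 libraries. Among the 28 pairs of receptors, Pearson's r of the log2 CPM ran from -0.59 for Adra1a with Adra2c to 0.59 for Adra1b with Adra2a, and within groups these were -0.35 and 0.49. Libraries share depth, base composition and group differences across genes, so the values are given as a description. The 3 genes whose pattern was most like that of Adra2c were Ttc9b, Dnajb2 and Tomm40 (r = 0.95, 0.95 and 0.95), and for Adra1a they were Dlg2, Gcnt4 and Cdh12 (r = 0.94, 0.92 and 0.92). For Adra1d the closest were Zfp592, Apc2 and Taok2 (r = 0.89, 0.89 and 0.88), for Adra2a Adh1, Cmbl and Wnt6 (r = 0.88, 0.86 and 0.86), and for Adrb3 Clcn2, Efemp1 and 4930523C07Rik (r = 0.92, 0.91 and 0.91). Adra2b was closest to Ccdc25, Barx2 and Tmem178 (r = 0.87, 0.83 and 0.82). The likeness was lowest for Adra1b, with Smoc1, Col6a2 and Slc9a2 (r = 0.79, 0.79 and 0.78), and for Adrb1, with Ppp1r2-ps2, Zxdc and Klf5 (r = 0.79, 0.75 and 0.74). No receptor was among the 3 closest genes of another. Adra2b and Adrb3 could not be, since only genes averaging at least 1 CPM were compared. By GC content of the transcripts, Adra2c and Adra1d stood at 65.5% and 65.4% and Adra1a at 50.6%, against a median of 49.8% over all genes tested.

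The genes that act before and after the receptors were taken from 8 lists of 48 genes, of which 47 were tested and Kcnj5 was not. The lists were chosen with earlier results of these data known. In SNI-Saline versus Sham-Saline, 2 of 47 rose, beside 5.85% of all genes, and 11 fell, beside 6.18%, with a median log2 difference of -0.14 against 0.00 over all genes. These 13 calls became 3 and 6 in the fits that left out replicates 1 and 2 of SNI-Saline, and 5 and 8 in those that left out replicates 3 and 4 of Sham-Saline. The calls over all genes fell from 2571 to 748, 771, 682 and 1218, in the same order. In SNI-DMI versus Sham-DMI none passed in edgeR with all libraries, 4 did in DESeq2, and 6, 2 and 1 did in edgeR without Sham-DMI replicate 1, Sham-DMI replicate 4 and SNI-DMI replicate 3. Of all genes, 86, 517, 850, 117 and 234 passed in these fits, in the same order. In Sham-DMI versus Sham-Saline, 3 rose, beside 11.6% of all genes, and 18 fell, beside 11.9%, with a median of -0.08 against -0.02. These 21 calls became 8 with GC and length trends removed, 11 and 10 without Sham-Saline replicates 1 and 3, and 12 and 11 without Sham-DMI replicates 1 and 4. The calls over all genes fell from 5010 to 3037, 4350, 3286, 3420 and 4218, in the same order. In SNI-DMI versus SNI-Saline 2 fell, beside 1.61% of all genes, and none rose, beside 1.32%, and the count ran from 0 to 7 in fits that each left out 1 library. Sham-Saline, whose libraries stood apart in ambiguous reads, is the control of the first and the third of these comparisons, so a gene high or low in those mice moves both.

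Among the G protein genes, Gnaq, whose product carries α1 signals, was lower by injury with saline (-0.30, adjusted p = 0.020) and by DMI under sham (-0.21, adjusted p = 0.038). Gnai1, which encodes a Gi subunit used by α2 receptors, was lower by injury with saline (-0.13, adjusted p = 0.088), by DMI under sham (-0.17, adjusted p = 0.012) and by DMI under SNI (-0.18, adjusted p = 0.067). Of the other Gi family genes, Gnaz fell with injury (-0.14, adjusted p = 0.093) and Gnai3 with DMI under sham (-0.20, adjusted p = 0.009). The βγ genes moved in both directions. Gng3 rose with injury by 0.23 (adjusted p = 0.034) and with DMI under sham by 0.36 (adjusted p = 0.002), and Gnb5 rose with DMI under sham by 0.15 (adjusted p = 0.032). Gng2 fell with DMI, at -0.15 (adjusted p = 0.054) under sham and -0.19 (adjusted p = 0.088) under SNI.

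Of 6 protein kinase A genes, 2 fell with injury, and with DMI under sham 2 fell and 1 rose. Of 6 phospholipase C and protein kinase C genes, 2 fell with injury and 4 with DMI under sham, and of 6 receptor kinases and arrestins 1 fell in each. Of all genes, 6.18% fell by injury with saline, and 11.9% fell and 11.6% rose with DMI under sham. Prkar2a and Prkar2b, regulatory subunits of protein kinase A, fell with injury (-0.28 and -0.24, adjusted p = 0.007 and 0.025) and with DMI under sham (-0.22 and -0.19, adjusted p = 0.007 and 0.026), while the regulatory subunit gene Prkar1b rose with DMI under sham (0.13, adjusted p = 0.093). Prkca and Prkce, which encode protein kinase C isoforms, fell in the same comparisons, by -0.31 and -0.24 with injury (adjusted p = 0.018 and 0.056) and -0.19 and -0.18 with DMI (adjusted p = 0.054 and 0.090). Plcb1 and Plcb4, phospholipase C isoforms, fell with DMI under sham (-0.23 and -0.21, adjusted p = 0.095 and 0.064). Grk3, a kinase that desensitizes activated receptors, fell by injury (-0.37, adjusted p = 0.030) and by DMI (-0.29, adjusted p = 0.033). Of the phosphodiesterases that break down cyclic AMP, Pde4d fell in both (-0.43 and -0.34, adjusted p = 0.028 and 0.035) and Pde4b with DMI under sham (-0.27, adjusted p = 0.024).

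The channels controlled by α2 receptors included the largest change of these lists outside noradrenaline supply. Kcnj6, a subunit of GIRK potassium channels, averaged 1.43 ± 0.111 CPM (SD, n = 4) in Sham-Saline, and 0.709 ± 0.331 after SNI, 0.685 ± 0.257 with DMI and 0.819 ± 0.175 CPM with both. Sham-Saline, at 1.27 to 1.53 CPM, lay above all 12 other mice, and both differences from it passed (-1.0 and -1.04, adjusted p = 0.045 and 0.018). Of all genes tested, 15.4% did not overlap in SNI-Saline versus Sham-Saline, and 7.7% lay lower there. In Sham-DMI versus Sham-Saline 17.1% did not overlap. The share of all genes with Sham-Saline above all 12 other mice was not counted. Cacna1b, the pore of the N-type calcium channel, fell by 0.25 with injury (adjusted p = 0.050) and by 0.20 with DMI under sham (adjusted p = 0.070). Of the supply and clearance genes, Dbh, the enzyme that makes noradrenaline, rose with injury (2.04, adjusted p = 0.062) on 2 to 4 counts per library in Sham-Saline and 10 to 18 in SNI-Saline, while Slc18a2, Maob and Maoa, which load amines into vesicles and break them down, fell with DMI under sham (-0.61, -0.52 and -0.16, adjusted p = 0.017, 0.096 and 0.039). The 7 sympathetic neuron markers, which include Dbh and Slc18a2, summed to 22.5 to 56.2 CPM in Sham-Saline and 21 to 36.5 CPM in Sham-DMI, and to 21.5 to 42.0 CPM in SNI-Saline and 33.9 to 52.2 CPM in SNI-DMI. The median log2 difference of the 4 that were tested was -0.61 in Sham-DMI versus Sham-Saline and -0.47 in SNI-Saline versus Sham-Saline, and the defining marker Hand2 was at 0 in 10 of 16 libraries. Their part in the supply genes was not tested. Gng2, Gng3, Gnb5, Kcnj6, Plcb1, Prkar1b, Prkca, Prkce and Slc18a2 share exonic bases with another annotated gene.

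**Figure D5:**
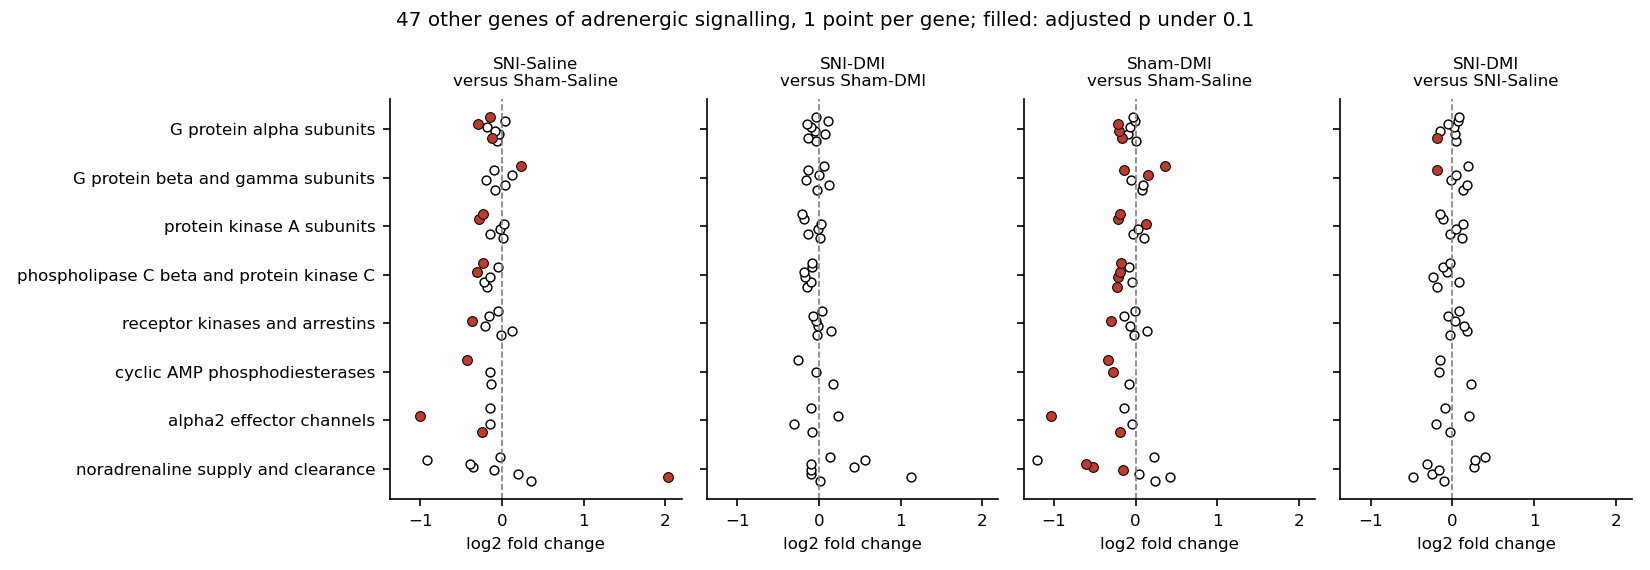
Log2 fold change of 47 genes that act before or after the adrenergic receptors, 1 point per gene, by list and comparison, with filled points where the adjusted p was under 0.1. In SNI-Saline versus Sham-Saline 11 of 13 filled points lie below 0 and in Sham-DMI versus Sham-Saline 18 of 21 do, and none is filled in SNI-DMI versus Sham-DMI.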

How the data were processed

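The authors aligned paired reads of stranded mRNA libraries with NGS-Data-Charmer, using mm10; the submitters' processing notes also name HISAT2, HTSeq and DESeq2, with versions and strand setting not given there. The deposited values are raw counts per Ensembl gene, with 5 closing lines of unassigned reads per library, which were left out (79.6% to 81.2% of counted reads were on genes). Symbols, positions and lengths came from GENCODE M21 (GRCm38), which holds 52403 of 52636 listed genes. The receptors, lists and tests were chosen with earlier results of these data known.

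Counts of all 16 libraries were fitted with edgeR 4.0.16 (R 4.3.3): filterByExpr, TMM, glmQLFit with 4 group means, and glmQLFTest with Benjamini-Hochberg adjustment over 21371 genes. Calls have an adjusted p under 0.1. Alternatives were RLE and upper-quartile scaling, no filter, at least 10 counts in every library, replicate number as a block, DESeq2 1.42.0, only the 8 libraries compared, GC and length trends removed, and leaving out each library. Named genes were all 8 receptors, list genes called between single groups, and for each receptor the 3 genes with the highest r among genes averaging at least 1 CPM. Replicates agreed at r of 0.987 or more and none was a duplicate. No sequences are printed.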

Additional observations from a re-analysis of the deposited data

Results flagged for a closer look

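Single mice stood apart from the other 3 of their group in 2 of 32 groups examined (8 genes in 4 groups), by a gap to the next mouse, relative to the group's whole range, above Dixon's 95% critical value, which chance alone exceeds in about 1 in 20. For Adra1d, SNI-DMI replicate 2 had 4.18 CPM and the other 3 mice 3.26 to 3.35 CPM, a gap of 0.902 of the range. For Adrb3, SNI-Saline replicate 3 had 0.562 CPM and the other 3 mice 0.183 to 0.199 CPM, a gap of 0.958 of the range.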

How the results depend on the processing

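Of 408 values recomputed under settings other than leaving out a library, 399 kept their direction and their side of the threshold. Of 896 with 1 library left out, 836 did. Only Adra2c and Adra1a, with DMI averaged over both surgeries, passed the threshold in the main fit. For the other values, keeping their side of it says little. The Adra2c call held in every setting. The Adra1a call was lost with GC and length trends removed and in 9 of 16 fits that each left out 1 library. With GC and length trends removed, DMI averaged over both surgeries called 1 receptor, the 47 other genes of the pathway gave 10 calls there, 8 in Sham-DMI versus Sham-Saline and 0 in SNI-DMI versus SNI-Saline, and small receptor values changed sign: Adra1b -0.045 (SNI-Saline versus Sham-Saline), Adra1d -0.081 and Adra2c -0.020 (SNI-DMI versus Sham-DMI), Adra1d -0.038 and Adrb1 -0.063 (SNI-DMI versus SNI-Saline), Adra2a -0.033 (DMI averaged), and Adra2c -0.074 in the difference between injury effects, where upper-quartile scaling gave -0.0033. The cause was not tested. With these trends removed, 3931 genes of all were called for DMI averaged, against 6542 in the main fit. In Sham-DMI versus Sham-Saline 3037 were called, against 5010, and in SNI-DMI versus SNI-Saline 5, against 626. Pathway calls numbered 8 for SNI-DMI versus SNI-Saline, 12 for Sham-DMI versus Sham-Saline and 20 for SNI-Saline versus Sham-Saline in fits of the 8 libraries compared. Calls over all genes there were 1812, 3742 and 3434. Without a filter, 1 pathway gene was called in each of SNI-DMI versus Sham-DMI and SNI-DMI versus SNI-Saline, beside 310 and 568 of all genes. In DESeq2 these were 4 and 10, beside 517 and 1898 of all genes. With at least 10 counts in every library, 4 pathway genes were called in SNI-DMI versus SNI-Saline, beside 844 of all genes. Per mean transcript length, chosen after the data had been seen, levels were 12.8 TPM for Adra2c, 4.65 for Adra2a, 3.09 for Adra1d, 1.43 for Adra1b and 0.173 for Adra2b.

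Replicate numbers were not shown to pair the mice, and no test of pairing was run. Over 24 same-numbered pairs the correlation of deviations ran from -0.081 to 0.184, with 5 pairs above 0.1. Its median was 7.4e-06, against 0.0014 in pairs with different numbers. The best match of 7 of 16 samples had their own number. The fit with a replicate block gave 0 pathway calls in SNI-DMI versus SNI-Saline against 2, with 172 of all genes called there against 626. It changed no other receptor or pathway count by over 1.5 times.

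With 1 library left out, pathway calls ran from 0 to 6 in SNI-DMI versus Sham-DMI, beside 17 to 850 of all genes. In SNI-DMI versus SNI-Saline they ran from 0 to 7, beside 0 to 1842. In SNI-Saline versus Sham-Saline they ran from 3 to 16, beside 682 to 3286. In Sham-DMI versus Sham-Saline they ran from 10 to 20, beside 3286 to 6094. For injury averaged they ran from 10 to 23, beside 2079 to 4873, against 19 and 3449 with all libraries. Receptor calls ran from 1 to 2 for DMI averaged and from 0 to 1 for injury averaged and for Sham-DMI versus Sham-Saline. Values that changed sign in at least 1 such fit ran, in SNI-Saline versus Sham-Saline, from -0.34 to 0.050 for Adra1a, -0.098 to 0.18 for Adra1b, -0.15 to 0.24 for Adra2a and -0.052 to 1.34 for Adrb3. In SNI-DMI versus Sham-DMI they ran from -0.068 to 0.19 for Adra1d, -0.19 to 0.021 for Adrb1 and -0.76 to 1.47 for Adrb3, and in SNI-DMI versus SNI-Saline from -0.016 to 0.16 for Adra1d and -0.10 to 0.21 for Adrb1. In Sham-DMI versus Sham-Saline the ranges were -0.21 to 0.036 for Adra1b, -0.34 to 0.056 for Adra2a and -1.87 to 0.78 for Adrb3. For averaged effects they were -0.19 to 0.99 for Adrb3 with injury, and -0.077 to 0.12 for Adra2a, -0.018 to 0.34 for Adra2b and -0.15 to 0.0078 for Adrb1 with DMI. For the difference between injury effects they were -0.071 to 0.069 for Adra2c and -1.66 to 0.97 for Adrb3. None of these passed the threshold with all libraries. At 0 to 54 counts per library, Adra2b and Adrb3 had standard errors of 0.45 to 0.81 between single groups, so only large differences were detectable.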
